A study of Mus musculus with 16 samples.

Results

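The genes described are 10 paracrine growth factors and growth factor receptors of the mammary stroma, HGF, FGF2, FGF7, FGF10, VEGFA, VEGFC, PDGFA and NRG1, and the receptors FGFR1 and FGFR2. They were taken by gene symbol, and all 10 were found among the 18132 genes measured. Levels were measured on 16 Illumina Mouse 8 arrays hybridized with total RNA of primary fibroblasts cultured from the inguinal mammary glands of female mice, strain 129S6, aged 8 to 10 weeks. The 4 groups of 4 arrays each were MEKK1+/+ untreated, MEKK1+/+ with CM, MEKK1-/- untreated and MEKK1-/- with CM, where CM is DMEM growth medium conditioned by the human breast tumor cell line MDA-MB231 and MEKK1 (gene MAP3K1) is a kinase upstream of the JNK and ERK pathways. All cells were kept in DMEM with 10% serum, the untreated cells received that medium without tumor conditioning, and the exposure lasted 8 h. The study's methods give 3 mice per genotype for 4 arrays per group, the labels do not tie a culture to a mouse, and p values therefore measure the spread between cultures, some of which share an animal.

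Growth factors of this kind are secreted by fibroblasts and act on receptor tyrosine kinases of their neighbours. In the mammary gland FGF7, FGF10, HGF and NRG1 are made by the stroma and act on epithelial receptors that steer duct branching and growth, VEGFA and VEGFC act on blood and lymphatic endothelium, and PDGFA acts on fibroblasts themselves. FGF receptors signal through ERK, which induces feedback inhibitors such as the Sprouty proteins and transcription factors such as ETV4 and ETV5.

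Intensities were log2 transformed and quantile normalized, and levels are given on that normalized log2 scale, on which a difference of 1 is a doubling of the intensity. The lowest intensity on any array was 69.4, so that no background subtraction was visible and fold changes of dim genes are understated. As a measure of background, the 99th percentile of 1075 olfactory receptor genes was taken on each array, which lay between 7.20 and 7.34, and 7 of the 10 genes exceeded it on all 16 arrays. Ratios are given within a gene only, since signals of different probes cannot be set against each other. Of 12 fibroblast markers 10 exceeded background on all arrays, the exceptions being LUM and POSTN. Of 16 macrophage markers 7 did so as well, and 3 (ITGAM, CD163 and FCER1G) exceeded it on none. Of 11 epithelial markers, KRT19 exceeded background on all 16 arrays and KRT8 on 15, those of both genotypes included. The epithelial markers KRT5, ELF5, CSN2 and WAP were above background on no array, whereas KRT14 reached 11.90 and 11.48 on the MEKK1-/- arrays numbered 1, untreated and with CM. KRT14 also exceeded background on MEKK1-/- replicates 3 and 4, at 7.95 and 7.78 untreated and 7.49 and 7.55 with CM, and on no MEKK1+/+ array. On the arrays numbered 1 the summed linear level of the 11 epithelial markers was 11744 and 10607, against 1375 to 2031 on the other 14. Of 9 endothelial markers 0 exceeded background on all arrays and 2 on none. Their summed level was also highest on the MEKK1-/- arrays numbered 1, at 2421 and 2412, against 1179 to 1577 on the other 14. The level of MAP3K1 did not fall with the MEKK1-/- label. Its levels in replicates 1 to 4 were 7.96, 7.77, 7.60 and 7.51 in MEKK1+/+ untreated cells and 8.06, 8.31, 8.17 and 8.41 in MEKK1-/- untreated cells. With CM they were 7.42, 7.71, 8.18 and 7.64 in MEKK1+/+ cells and 8.08, 7.79, 8.29 and 8.13 in MEKK1-/- cells. The part of the transcript that the probe reads is not given in the sources used here, so this gene does not check the genotype labels.

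VEGFA and VEGFC were the pair of ligands whose levels were higher with CM when both genotypes were averaged, and their promoters are shown for that reason, a choice made after their values were seen. The sequences are those of RefSeq on GRCm38.p6 and run from 250 bases before to 50 bases after the annotated start of the transcript, 5′ to 3′ on the strand of the gene. Capitals mark each match, on either strand, to GGG and CC separated by any 5 bases (the outline of the NF-kB site), GGGCGG (the GC box bound by SP1), TGANTCA (the AP-1 site) or ACGTG (the core of the hypoxia response element).
VEGFA, chr17:46032328-46032627, minus strand: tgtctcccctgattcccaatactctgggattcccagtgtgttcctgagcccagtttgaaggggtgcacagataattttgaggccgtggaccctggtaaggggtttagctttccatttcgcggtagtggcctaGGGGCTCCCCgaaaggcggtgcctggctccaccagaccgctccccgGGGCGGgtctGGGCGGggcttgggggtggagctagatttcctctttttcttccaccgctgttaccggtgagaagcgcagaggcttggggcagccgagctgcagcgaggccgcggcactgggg
VEGFC, chr8:54077282-54077581, plus strand: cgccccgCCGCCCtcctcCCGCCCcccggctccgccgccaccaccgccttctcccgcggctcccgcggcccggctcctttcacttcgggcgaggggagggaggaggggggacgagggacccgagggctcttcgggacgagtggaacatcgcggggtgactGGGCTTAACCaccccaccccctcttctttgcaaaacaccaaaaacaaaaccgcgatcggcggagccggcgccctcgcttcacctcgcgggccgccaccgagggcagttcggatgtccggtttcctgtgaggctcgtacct

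The VEGFA window shown held 1 match to the NF-kB outline and 2 to GGGCGG, and the VEGFC window likewise held 1 and 2. Neither of these windows held a match to TGANTCA or ACGTG. RefSeq holds a second VEGFA entry, chr17:46025114-46025413 on the minus strand and not printed here, which held 1 match to ACGTG, 1 to GGGCGG and 0 to the NF-kB outline. Promoter entries existed for 8 of the 10 genes, 11 entries in all, and none for FGFR1 and NRG1. Of the 11 entries 7 held the NF-kB outline, 7 held GGGCGG, 2 held ACGTG and 0 held TGANTCA. Among all 32851 promoter windows of the same length the shares were 50.8% for the NF-kB outline, 35.7% for GGGCGG, 19.6% for ACGTG and 7.81% for TGANTCA. A match describes the letters of the window and not the binding of a factor.

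**Figure D1:**
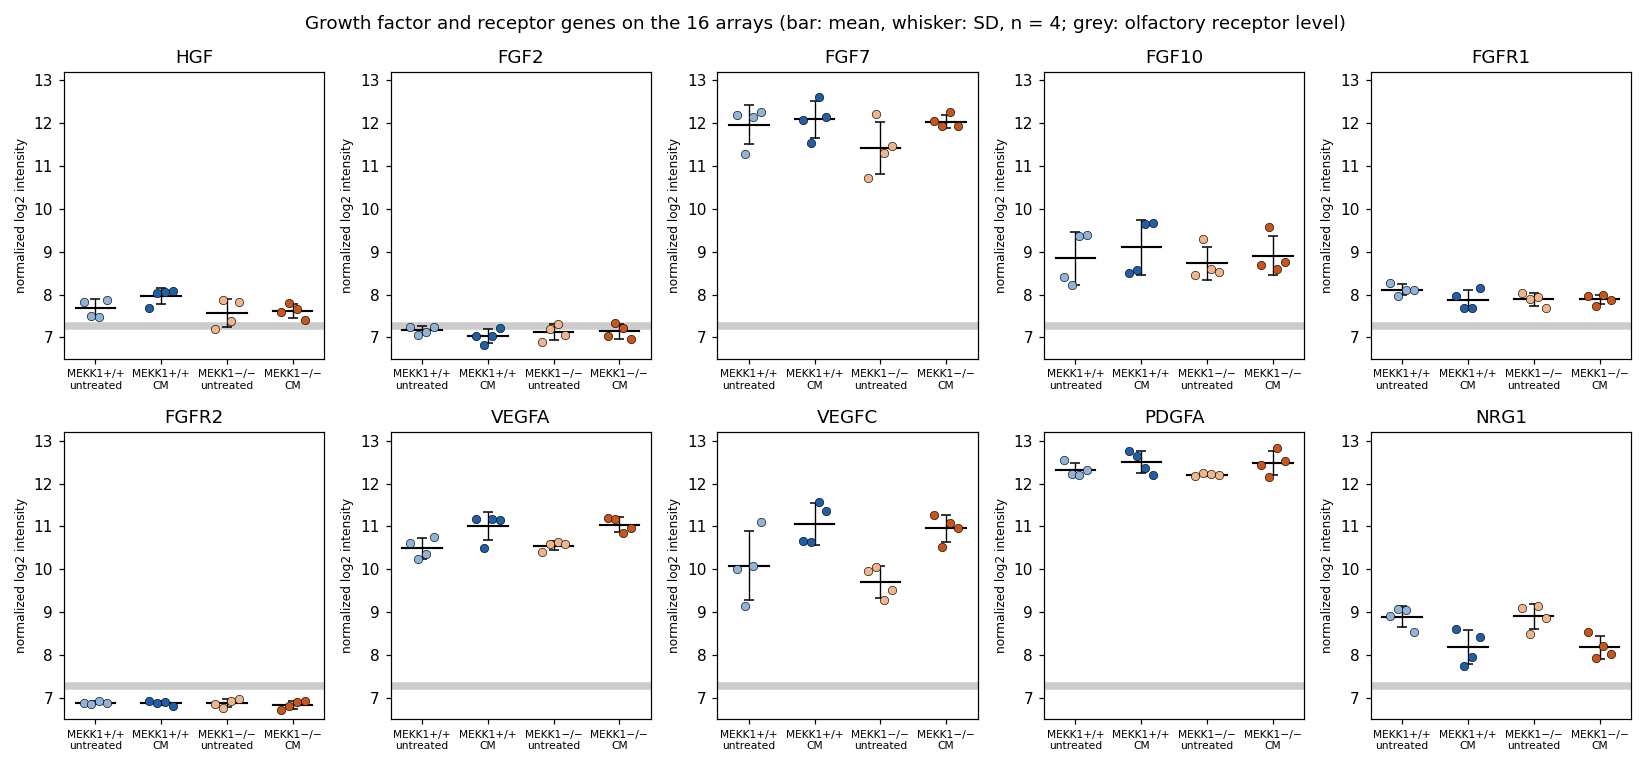
Normalized log2 intensity of the 10 genes (y axis) on each array (points) by group (x axis), with the mean (bar) and SD (whisker) of 4 arrays; the grey band spans the background level of the olfactory receptor genes over the 16 arrays. VEGFC on the MEKK1-/- arrays lay between 9.27 and 10.05 untreated and between 10.52 and 11.26 with CM, while FGFR2 lay under the band on every array.

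To determine how medium from tumor cells changed the growth factor genes, arrays with CM were compared with untreated arrays within each genotype. VEGFC was the one gene of the 10 past the threshold, an adjusted p of 0.05 by limma over all 18132 genes in a fit without pairing of arrays. It passed in MEKK1-/- cells, where its level rose 2.39-fold. In MEKK1+/+ cells 0 of the 10 passed, where 5.01% of all genes did, and in MEKK1-/- cells 1 of 10 passed, where 4.69% of all genes did. At an unadjusted p under 0.05 the counts were 4 of 10 in each genotype, against 16.8% of all genes in MEKK1+/+ cells and 16.2% in MEKK1-/- cells. The 4 were VEGFA, VEGFC, NRG1 and FGFR1 in MEKK1+/+ cells, and VEGFA, VEGFC, NRG1 and FGF7 in MEKK1-/- cells. A fit of only the 8797 genes above background on at least 4 arrays gave higher shares. There 11.8% passed in MEKK1+/+ cells, VEGFA and NRG1 among them, and 11.1% in MEKK1-/- cells, VEGFA, VEGFC and NRG1 among them. The unadjusted shares in that fit were 26.5% and 25.9%. The median difference of the 10 genes was 0.15 in MEKK1+/+ and 0.11 in MEKK1-/- cells, and that of all genes was -0.002 and -0.004. VEGFA and VEGFC in MEKK1-/- cells had treated arrays entirely above untreated ones, and 10.4% of all genes had groups apart in this way in either direction. In MEKK1+/+ cells treated and untreated arrays overlapped for all 10, while 9.7% of all genes had groups apart. The replicate numbers were taken to pair the MEKK1-/- arrays, which the counts above leave out of account. With the number within genotype as a block, VEGFA, VEGFC and NRG1 passed in MEKK1-/- cells (limma adjusted p = 0.0206, 0.00968 and 0.0326), where 7.93% of all genes did. That fit blocked the arrays of both genotypes and took a shared estimate of the spread. Its p values in MEKK1-/- cells thus also rest on the MEKK1+/+ arrays, whose numbers were not taken as pairs.

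VEGFC, the ligand of the lymphatic endothelial receptor FLT4, measured 10.01, 9.13, 10.06 and 11.11 in replicates 1 to 4 of the untreated MEKK1+/+ cells and 10.65, 10.63, 11.57 and 11.37 with CM. Untreated replicate 4 alone reached into the range of the treated arrays. The difference was 0.98 (SE 0.34, 95% confidence interval 0.26 to 1.70, limma adjusted p = 0.123, exact permutation p = 0.0857). With 1 array left out it ranged from 0.66 without untreated MEKK1+/+ replicate 2 (limma adjusted p = 0.335) to 1.32 without untreated MEKK1+/+ replicate 4 (limma adjusted p = 0.0157), the one such fit that passed, and it was 0.56 in the values as deposited. The untreated MEKK1-/- cells measured 9.95, 10.05, 9.27 and 9.51 and those with CM 11.26, 10.52, 11.07 and 10.96. Every treated MEKK1-/- array lay above every untreated one. That difference was 1.26 (SE 0.34, interval 0.54 to 1.98, limma adjusted p = 0.0456, exact permutation p = 0.0286, the smallest that 4 against 4 arrays allow). Over all genes same-numbered MEKK1-/- arrays deviated together from their group means. For VEGFC they did not, since replicate 2 was the highest untreated array, at 10.05, and the lowest with CM, at 10.52. With the replicate number within genotype as a block the limma adjusted p was 0.00968, in a fit whose spread also came from the MEKK1+/+ arrays. The call was close to the threshold, since it held when any of 5 arrays was left out (untreated MEKK1+/+ replicates 2 and 4, CM MEKK1+/+ replicates 2 and 3, and untreated MEKK1-/- replicate 2) and was lost for each of the other 11, with limma adjusted p between 0.0513 and 0.141. Without both MEKK1-/- arrays numbered 1, which carried the strongest epithelial and endothelial signal, the difference was 1.24 (limma adjusted p = 0.112). Of 14 settings other than the reported one, leaving out that pair included, VEGFC passed in 8 in MEKK1-/- cells.

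VEGFA, the main ligand of KDR on blood vessels, measured 10.62, 10.24, 10.34 and 10.76 in untreated MEKK1+/+ cells and 11.18, 10.50, 11.16 and 11.15 with CM. Treated replicate 2 lay within the untreated range and the other treated arrays lay above it. The difference was 0.51 (SE 0.15, interval 0.20 to 0.83, limma adjusted p = 0.0618, exact permutation p = 0.0857). With 1 array left out it ranged from 0.43 without untreated MEKK1+/+ replicate 2 (limma adjusted p = 0.184) to 0.68 without that treated replicate (limma adjusted p = 0.00593). Of these 16 fits 2 passed, the other being that without untreated MEKK1+/+ replicate 4 (limma adjusted p = 0.0343). VEGFA in MEKK1-/- cells measured 10.40, 10.60, 10.64 and 10.58 untreated and 11.20, 11.16, 10.84 and 10.97 with CM, with no overlap. The difference was 0.49 (SE 0.15, interval 0.17 to 0.81, limma adjusted p = 0.0783, exact permutation p = 0.0286), and the block by replicate number within genotype gave a limma adjusted p of 0.0206. In MEKK1-/- cells replicate 1 was the lowest untreated and the highest treated array for VEGFA, so same-numbered arrays did not move together for this gene. Without both MEKK1-/- arrays numbered 1 the difference was 0.39 (limma adjusted p = 0.291). In MEKK1+/+ cells the size depended on the scale, at 0.09 in the values as deposited, in which the median of all genes was itself 0.28 lower with CM.

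NRG1, the neuregulin ligand of ERBB3 and ERBB4, had lower group means with CM in both genotypes. It measured 8.92, 9.07, 9.05 and 8.54 in untreated MEKK1+/+ cells and 8.60, 7.75, 7.94 and 8.41 with CM. Treated replicate 1 lay just above untreated replicate 4, and the other treated arrays lay below all untreated ones. The difference was -0.72 (SE 0.20, interval -1.14 to -0.29, limma adjusted p = 0.0506, exact permutation p = 0.0571). In MEKK1-/- cells it measured 9.10, 8.49, 9.14 and 8.86 untreated and 8.53, 7.94, 8.21 and 8.02 with CM. Again 1 treated array, replicate 1, overlapped the lowest untreated array, replicate 2. The difference was -0.72 (SE 0.20, interval -1.14 to -0.30, limma adjusted p = 0.0510, exact permutation p = 0.0571), with a limma adjusted p of 0.0326 under the block by replicate number. Both values stood at the threshold: with 1 array left out, 4 of 16 fits passed in MEKK1+/+ cells (adjusted p by limma from 0.0249 to 0.140) and 5 of 16 in MEKK1-/- cells (0.0254 to 0.155).

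**Figure D2:**
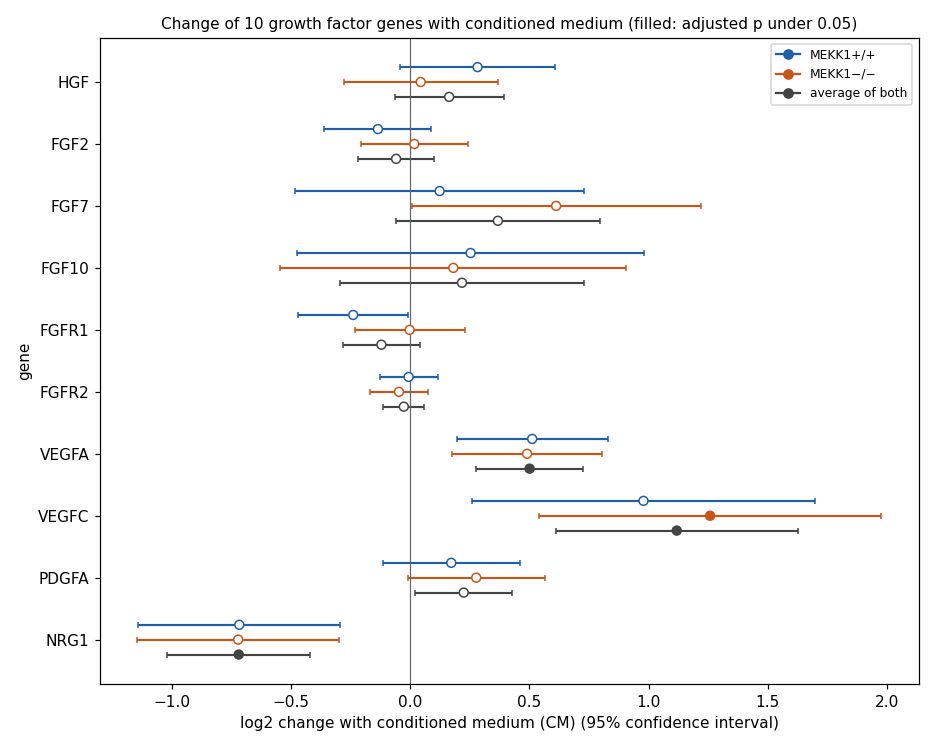
Log2 difference of CM minus untreated (x axis) with its 95% confidence interval for the 10 genes (y axis), in MEKK1+/+ cells, in MEKK1-/- cells and averaged over both; filled points passed an adjusted p of 0.05 over all genes. The intervals of VEGFA, VEGFC and NRG1 lay on one side of 0 in both genotypes.

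FGF7, an epithelial mitogen made by fibroblasts, was bright on every array. Untreated MEKK1+/+ cells measured 12.19, 11.29, 12.14 and 12.26 and treated ones 12.08, 11.54, 12.61 and 12.14, a difference of 0.12 (SE 0.28, limma adjusted p = 0.911). Untreated MEKK1-/- cells measured 10.73, 12.21, 11.31 and 11.46 and treated ones 12.04, 11.93, 12.25 and 11.94. There 3 of the 4 untreated arrays lay below all treated ones, and replicate 2 did not. The difference was 0.61 (SE 0.28, interval 0.01 to 1.22, limma adjusted p = 0.302, exact permutation p = 0.114), and it was 0.38 without both arrays numbered 1 and 0.87 without untreated replicate 2.

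FGF10, a ligand of the epithelial receptor FGFR2, had a wide spread among replicates that the same-numbered arrays of a genotype shared. Untreated MEKK1+/+ cells measured 8.41, 8.23, 9.37 and 9.39 and treated ones 8.51, 8.58, 9.64 and 9.68. Untreated MEKK1-/- cells measured 8.47, 9.30, 8.60 and 8.53 and treated ones 8.70, 9.57, 8.61 and 8.75. Replicates 3 and 4 were high in both MEKK1+/+ groups, and replicate 2 in both MEKK1-/- groups. The difference with CM was 0.25 (SE 0.34, limma adjusted p = 0.815) in MEKK1+/+ and 0.18 (SE 0.34, adjusted p = 0.893) in MEKK1-/- cells. Between same-numbered arrays the level was higher with CM in 8 of 8 pairs, by 0.003 to 0.353, and in 5 of 8 in the values as deposited. With the replicate number within genotype as a block limma gave an adjusted p of 0.149 for MEKK1-/- and 0.0435 for MEKK1+/+, although 1 of the 4 MEKK1+/+ pairs did not deviate together over all genes. MEKK1-/- replicate 2 was also the MEKK1-/- culture with the highest summed macrophage marker level, 63219 untreated and 53449 with CM against 12609 to 37366 on the other 6 MEKK1-/- arrays, and it had the lowest epithelial level, 1518 and 1448. In MEKK1+/+ replicates 1 to 4 the macrophage level was 76148, 29666, 69095 and 54507 untreated and 71237, 25226, 70082 and 55044 with CM. Of these, replicates 3 and 4 were the ones with high FGF10. The part of other cell types in FGF10 was not tested, and in RNA of a whole culture fewer cells of a type cannot be told apart from less RNA per cell.

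PDGFA, a ligand of PDGFRA, measured 12.54, 12.21, 12.21 and 12.32 in untreated MEKK1+/+ cells and 12.75, 12.65, 12.37 and 12.20 with CM. It measured 12.17, 12.24, 12.23 and 12.19 in untreated MEKK1-/- cells and 12.44, 12.14, 12.82 and 12.53 with CM. The groups overlapped in both genotypes, and differences were 0.17 (SE 0.13, limma adjusted p = 0.622) and 0.28 (SE 0.13, adjusted p = 0.333).

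HGF, the ligand of the receptor MET, was dim and exceeded background on 15 arrays. It measured 7.83, 7.51, 7.48 and 7.88 in untreated MEKK1+/+ cells and 7.68, 8.03, 8.05 and 8.08 with CM, a difference of 0.28 (SE 0.15, limma adjusted p = 0.388, exact permutation p = 0.114). In MEKK1-/- cells it measured 7.19, 7.87, 7.38 and 7.82 untreated and 7.59, 7.80, 7.65 and 7.40 with CM, a difference of 0.04 (SE 0.15, limma adjusted p = 0.950). Treated replicates 2 to 4 were above all untreated arrays in MEKK1+/+ cells, and the MEKK1-/- groups overlapped throughout. FGF2, a ligand of FGFR1, exceeded background on 4 arrays, 1 in each group, and lay between 6.83 and 7.35. Its differences were -0.14 (SE 0.11, interval -0.36 to 0.09) and 0.02 (SE 0.11, interval -0.21 to 0.24). At this signal a fall or a small change could not be detected.

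Of the receptors, FGFR1 was above background on all arrays and FGFR2, which in the gland is mainly epithelial, on none. FGFR1 measured 8.27, 7.98, 8.11 and 8.11 in untreated MEKK1+/+ cells and 7.97, 7.68, 7.69 and 8.16 with CM. Replicate 4 was the treated array that stayed high. The difference was -0.24 (SE 0.11, interval -0.47 to -0.01, limma adjusted p = 0.273, exact permutation p = 0.171). FGFR1 in MEKK1-/- cells measured 8.04, 7.90, 7.94 and 7.68 untreated and 7.96, 7.73, 7.98 and 7.87 with CM, with the same mean to within 0.003 (SE 0.11). FGFR2 lay between 6.70 and 6.96 on all arrays, and its differences were -0.01 and -0.05 (SE 0.06).

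The comparison averaged over both genotypes was added after these values had been seen, and it uses all 16 arrays in the same fit. In it 3 of the 10 genes passed, where 12.5% of all genes did: VEGFA and VEGFC rose and NRG1 fell. In a fit of only the 8797 genes above background on at least 4 arrays, these 3 passed as well, where 27.7% of those genes did. VEGFC rose by 1.12 (SE 0.24, interval 0.61 to 1.63, limma adjusted p = 0.00511), a 2.17-fold change. VEGFA rose by 0.50 (SE 0.10, interval 0.28 to 0.72, limma adjusted p = 0.00453), a 1.41-fold change. NRG1 fell by 0.72 (SE 0.14, interval -1.02 to -0.42, limma adjusted p = 0.00289), to 0.607 of its untreated level. Each of the 3 held without any single array, and without both MEKK1-/- arrays numbered 1. Of 12 settings other than the reported one, leaving out that pair included, VEGFC and NRG1 passed in each and VEGFA in 10, the exceptions being the values as deposited (0.25, limma adjusted p = 0.296) and median scaling (0.40, adjusted p = 0.0602). The other 7 genes had averaged differences from -0.12 (FGFR1) to 0.37 (FGF7), and the smallest of their adjusted p values by limma was 0.163, for PDGFA at 0.22 (SE 0.10). At an unadjusted p under 0.05 the count was 4 of 10 with PDGFA, against 23.1% of all genes and 38.9% of the 8797 genes above background.

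**Figure D3:**
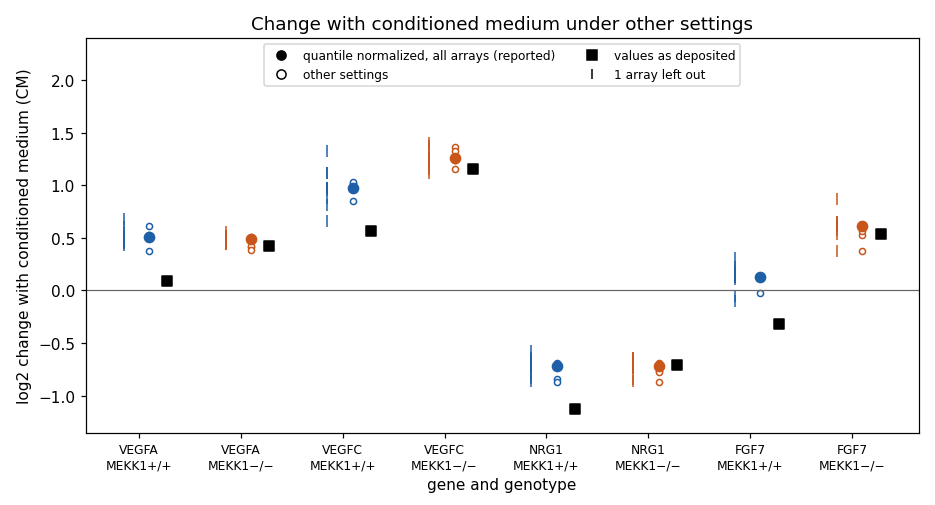
Log2 difference of CM minus untreated (y axis) for VEGFA, VEGFC, NRG1 and FGF7 in each genotype (x axis): as reported (large point), under other settings on the log2 scale (open points), in the values as deposited (square) and with 1 array left out (ticks). The differences of VEGFA, VEGFC and NRG1 kept their sign, and that of FGF7 in MEKK1+/+ cells went from 0.12 to -0.32 in the values as deposited.

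The pattern of VEGFC over the 16 arrays was most like that of GYPC (Pearson's r = 0.936), MMP9, a gelatinase (0.925), and 2810439F02RIK (0.919), among 8796 genes above background on at least 4 arrays. The arrays share the contrast with CM, so these values are a description.

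To determine whether MEKK1 changed these genes, MEKK1-/- arrays were compared with MEKK1+/+ arrays under each treatment. In untreated cells 0 of the 10 genes passed by limma, as did 0% of all genes, and 0 had an unadjusted p under 0.05, against 9.27% of all genes. Differences ran from -0.54 for FGF7 (SE 0.28, interval -1.15 to 0.07) to 0.06 for VEGFA (SE 0.15, interval -0.25 to 0.38). The smallest adjusted p by limma was 0.540, for FGFR1 at -0.23 (SE 0.11, interval -0.46 to 0.002). VEGFC was 0.38 lower in the MEKK1-/- mean, and the sign of its interval was open, from -1.10 to 0.34. Without untreated MEKK1-/- replicate 1, the culture with the strongest epithelial signal, FGF7 differed by -0.31. The macrophage signal also differed between the genotypes, with overlap. The summed linear level of the macrophage markers was 29666 to 76148 on untreated MEKK1+/+ and 12609 to 63219 on untreated MEKK1-/- arrays. With CM it was 25226 to 71237 and 13386 to 53449. Whether the mix of cell types bears on the genotype differences was not tested.

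With CM, 0 of the 10 genes passed by limma, where 0.00552% of all genes did, and 1 had an unadjusted p under 0.05, against 8.09% of all genes. That gene was HGF, at -0.35 (SE 0.15, interval -0.67 to -0.02, limma adjusted p = 0.598, exact permutation p = 0.0571). Treated MEKK1-/- cells measured at most 7.80 and 3 of the 4 treated MEKK1+/+ arrays at least 8.03. The other differences lay between -0.20 for FGF10 and 0.11 for FGF2. The groups of arrays overlapped for all 10 genes in both treatments, against 4.61% of all genes that did not overlap in untreated cells and 4.17% with CM.

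The change with CM was also compared between the genotypes through the interaction term, for which 0 of 10 genes and 0% of all genes passed by limma, and 0 of the 10 had an unadjusted p under 0.05, against 2.61% of all genes. For VEGFA the change in MEKK1-/- minus that in MEKK1+/+ cells was -0.02 (SE 0.21, interval -0.47 to 0.43). For VEGFC it was 0.28 (SE 0.48, interval -0.74 to 1.29). For NRG1 it was -0.005 (SE 0.28, interval -0.60 to 0.59). The widest estimate was that of FGF7, 0.49 (SE 0.40, interval -0.37 to 1.35), followed by HGF at -0.24 (SE 0.21) and FGFR1 at 0.24 (SE 0.15). These intervals hold differences of up to about the size of the change itself for VEGFC and of most of it for VEGFA and NRG1, so that a dependence on MEKK1 of that size was not detectable with 4 arrays per group.

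The receptors, other ligands and feedback genes of the same pathways were taken from a list of 66 genes, of which 61 were measured, 17 above background on all arrays and 30 on none. ERBB2, ERBB3, ERBB4, NRG2 and SPRY1 were not analysed here. In MEKK1+/+ cells 8 of the 61 passed with CM, 7 higher and 1 lower, and in MEKK1-/- cells 6, 5 higher and 1 lower. These shares stand beside 5.01% and 4.69% of all genes. The median difference of the 61 was 0.01 and 0.03. The calls in common were 5: MST1R, PDGFRA, SPRY3 and IL17RD, which rose, and NRP1, which fell. EGFR, FGFRL1 and SPRY2 passed in MEKK1+/+ cells and ETV5 in MEKK1-/- cells, and the differences between genotypes did not pass for any of the 61. Averaged over both genotypes 12 passed, 9 higher and 3 lower, against 12.5% of all genes. With the replicate number within genotype as a block, 12 passed in MEKK1-/- cells, where 7.93% of all genes passed in the same fit. None of the 3 other VEGF ligands of the list passed in either genotype or in the average. FIGF (VEGFD) had lower means with CM, 9.97 against 10.68 in MEKK1+/+ and 9.30 against 10.00 in MEKK1-/- cells. Its averaged difference, -0.71, was the lowest of the 61. The means of VEGFB and PGF were higher with CM in both genotypes.

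**Figure D4:**
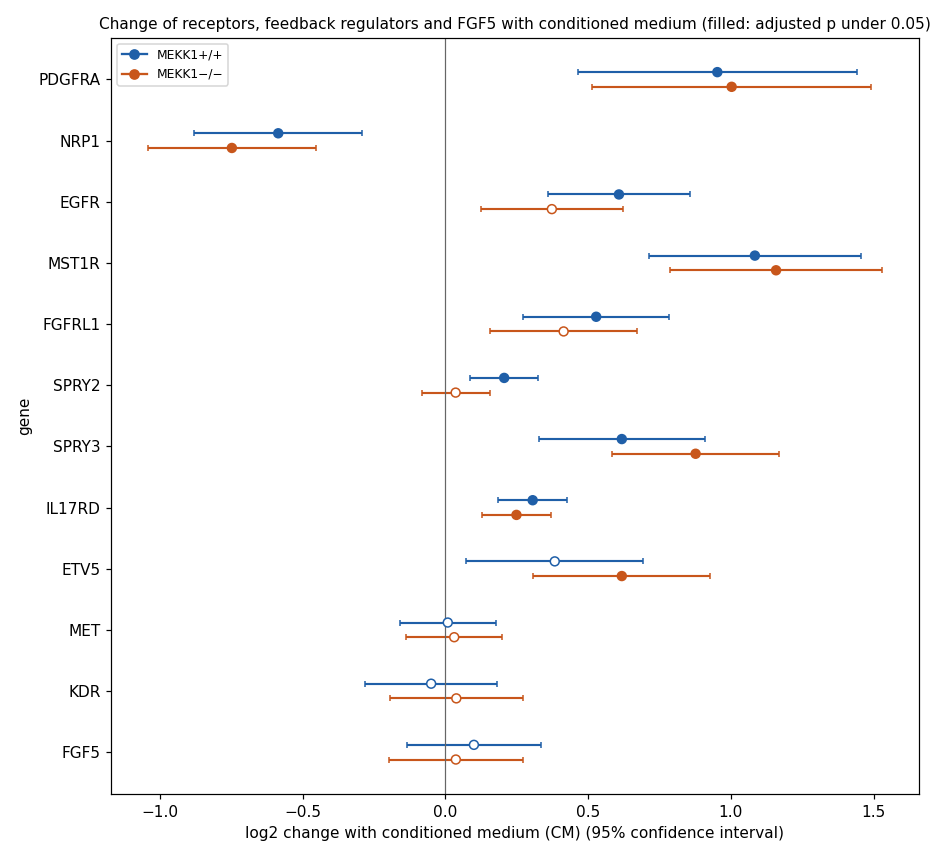
Log2 difference of CM minus untreated (x axis) with its 95% confidence interval for 12 receptors, feedback genes and FGF5 (y axis) in each genotype; filled points passed an adjusted p of 0.05 over all genes. MST1R, PDGFRA, SPRY3 and IL17RD lay above 0 and NRP1 below 0 in both genotypes, and MET, KDR and FGF5 lay near 0.

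Among the receptors, PDGFRA, the receptor of PDGFA and itself a fibroblast marker, measured 11.46, 11.32, 11.54 and 11.53 in untreated MEKK1+/+ cells and 11.78, 12.62, 12.94 and 12.33 with CM. In MEKK1-/- cells it measured 10.85, 11.86, 10.92 and 11.15 untreated and 12.36, 12.14, 12.38 and 11.91 with CM. The groups did not overlap in either genotype. It rose by 0.95 (SE 0.23, limma adjusted p = 0.0256) and 1.00 (SE 0.23, limma adjusted p = 0.0204). The first call was lost without untreated replicates 1, 2 or 3 or treated replicates 2, 3 or 4 of MEKK1+/+ (adjusted p up to 0.0768), and the second without untreated replicates 1, 3 or 4 or treated replicate 3 of MEKK1-/- (up to 0.0741). Without both MEKK1-/- arrays numbered 1 the second was 0.84 (limma adjusted p = 0.104).

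NRP1, a co-receptor of VEGFA, measured 12.54, 12.34, 12.18 and 11.92 in untreated MEKK1+/+ cells and 11.56, 11.53, 11.82 and 11.71 with CM. The MEKK1-/- cells measured 11.99, 12.33, 12.41 and 12.41 untreated and 11.60, 11.21, 11.74 and 11.60 with CM. Every treated array lay below every untreated one of its genotype. It fell by 0.59 (SE 0.14, limma adjusted p = 0.0228) and by 0.75 (SE 0.14, limma adjusted p = 0.00557). The first call was lost without untreated replicates 1, 2 or 3 or treated replicates 1 or 2 of MEKK1+/+ (adjusted p up to 0.0705), and the second held without any single array.

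MST1R, the receptor of the HGF-like protein MST1, had the smallest adjusted p of the list. It measured 7.34, 7.41, 7.65 and 8.07 in untreated MEKK1+/+ cells and 8.59, 8.84, 8.52 and 8.86 with CM. The MEKK1-/- cells measured 7.28, 7.92, 7.34 and 7.44 untreated and 8.29, 8.83, 8.82 and 8.66 with CM. Untreated arrays ranged from 7.28, close to background, to 8.07, and all treated arrays lay above them. It rose 2.12-fold (log2 difference 1.08, SE 0.17, limma adjusted p = 0.00249) and 2.23-fold (1.16, SE 0.17, limma adjusted p = 0.00148), and both calls held under each alternative and without any single array. MET, the receptor of HGF, was above background on no array and differed by 0.01 and 0.03 (SE 0.08), and KDR, also above background on none, by -0.05 and 0.04 (SE 0.11).

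EGFR rose by 0.61 (SE 0.12, limma adjusted p = 0.00732) in MEKK1+/+ cells, and its difference in MEKK1-/- cells was 0.37 (SE 0.12, limma adjusted p = 0.0902). FGFRL1, an FGF-binding receptor without a kinase domain, rose by 0.53 (SE 0.12, limma adjusted p = 0.0189) in MEKK1+/+ cells and differed by 0.41 (SE 0.12, limma adjusted p = 0.0661) in MEKK1-/- cells. Treated arrays of both genes lay above untreated arrays in each genotype. The FGFRL1 call was lost without untreated replicates 2 or 3 or treated replicate 4 of MEKK1+/+ (adjusted p up to 0.0624).

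Of the 13 feedback regulators and targets of FGF signaling, SPRY3, IL17RD (also called SEF) and SPRY2, inhibitors of the pathway, rose in MEKK1+/+ cells, and SPRY3, IL17RD and the transcription factor ETV5 rose in MEKK1-/- cells. These counts, 3 of 13 in each genotype, stand beside 5.01% and 4.69% of all genes. ETV4 passed in neither genotype, with means of 9.22 untreated and 9.91 with CM in MEKK1+/+ and 9.37 and 10.08 in MEKK1-/- cells. In the average over genotypes ETV4, ETV5, IL17RD and SPRY3 rose and FRS2 fell. SPRY3 lay between 7.42 and 8.03 on the 8 untreated arrays and between 8.26 and 8.85 on the 8 treated ones. Its differences were 0.62 (SE 0.14, limma adjusted p = 0.0164) and 0.88 (SE 0.14, limma adjusted p = 0.00191), the first with adjusted p 0.0566 without untreated MEKK1+/+ replicate 3. IL17RD lay between 7.51 and 7.71 untreated and between 7.80 and 8.00 with CM, with differences of 0.31 (SE 0.06, limma adjusted p = 0.00572) and 0.25 (SE 0.06, limma adjusted p = 0.0187). The latter call was lost without untreated replicate 4 or treated replicate 2 of MEKK1-/- (adjusted p up to 0.0681). ETV5 differed by 0.38 (SE 0.15, limma adjusted p = 0.170) in MEKK1+/+ cells and rose by 0.62 (SE 0.15, limma adjusted p = 0.0235) in MEKK1-/- cells, a call lost without untreated replicates 2, 3 or 4 or treated replicates 2 or 4 (adjusted p up to 0.0822). SPRY2 lay between 6.63 and 6.98, above background on no array, and its call (0.21, SE 0.06, limma adjusted p = 0.0459) was lost in 15 of the 16 fits with 1 array left out.

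Of the 19 other FGF family genes of the list, 0 were above background on all arrays, 12 were above it on none, and 0 passed in either genotype by limma. FGF21 was above background on 10 arrays. FGF5, a ligand that the study examined as a product of MDA-MB231 cells, was above background on 2 arrays and differed by 0.10 (SE 0.11) in MEKK1+/+ and 0.04 (SE 0.11) in MEKK1-/- fibroblasts. FGF7 and FGF10 were thus the FGF ligands measured above background on all 16 arrays.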

How the data were processed

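The authors deposited normalized intensities on a linear scale, 1 value per gene symbol for 18132 genes on each of 16 arrays. Per the labels a core facility normalized them and the raw data were discarded. The normalization, background treatment and combination of probes are not given in the sources used here. The array medians of the deposited intensities, 114 to 170.1, differed, so log2 values were quantile normalized between arrays. Precision is limited by 4 arrays per group. Array correlations within a group were 0.979 to 0.996.

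The 4 group means were fitted with lmFit and eBayes of limma 3.58.1 (R 4.3.3, 12 residual degrees of freedom), with Benjamini-Hochberg adjustment over all genes and a threshold of 0.05. For single genes a 2-sided exact permutation test over 70 splits was added. Tested on simulated data for the untreated genotype comparison, 191 of 200 genes changed by 1 were recovered. The noise was drawn independently for each gene and array, and the 200 genes came from all measured genes, dim ones included. This recovery therefore does not measure the power for genes with a wide spread, or where arrays deviate together. Groups and replicate numbers came from the labels. Residuals of same-numbered untreated and CM arrays correlated by 0.219 to 0.505 in MEKK1-/- cells, so the numbers were taken to pair these, and by -0.038 to 0.576 in MEKK1+/+ cells, where they were not. The block within genotype was nevertheless fitted to the arrays of both genotypes together. The genes and lists were chosen with earlier results of these data known. Named were all 10 genes, the list genes past the threshold in a planned comparison, FGF5, MET, KDR, MAP3K1 and the 3 genes most like a called gene. Alternatives were other scalings, filters, floors, pseudocounts, variance models, weights, blocks, the z-test of the study's methods and arrays left out. Chosen after seeing the data were the average over genotypes, normexp with an offset of 50 and leaving out both MEKK1-/- arrays numbered 1.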

Additional observations from a re-analysis of the deposited data

Results flagged for a closer look

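Among 40 sets of 4 arrays, 1 for each of the 10 genes and 4 groups, 5 had an array far from the others by Dixon's ratio, the gap to the nearest array over the whole range, above the 95% critical value for 4 arrays. Chance gives about 1 in 20. VEGFA with CM in MEKK1+/+ cells had a ratio of 0.962, with replicate 2 at 10.50 and the others at 11.15 to 11.18. HGF in the same group had 0.879, with replicate 1 at 7.68 and the others at 8.03 to 8.08. FGF7 in untreated MEKK1+/+ cells had 0.875, with replicate 2 at 11.29 and the others at 12.14 to 12.26. FGF10 had 0.837 in untreated and 0.849 in treated MEKK1-/- cells, with replicate 2 highest in both, at 9.30 and 9.57. MEKK1+/+ replicate 2 also had the lowest summed macrophage marker level of its genotype, 29666 untreated and 25226 with CM. Whether this bears on VEGFA or FGF7 was not tested.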

How the results depend on the processing

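The differences of 70 genes and comparisons were computed under other settings. Of 927 values with other settings 812 kept their direction and side of the threshold, 30 lost a call, 37 gained one and 48 changed sign. Of 1120 values with 1 array left out these numbers were 999, 52, 16 and 53.

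The number of the 10 genes called with CM in MEKK1+/+ cells, reported as 0, was 1 in the values as deposited, with median scaling, with z-scores by limma, by the methods' z-test, with trend and robust eBayes, with the replicate block across all groups and without both MEKK1-/- arrays numbered 1, and 2 with the filter on dim genes and with array weights. The replicate block within genotype gave 4 there (VEGFA, VEGFC, NRG1 and FGF10), although the numbers were not taken to pair the MEKK1+/+ arrays, and 3 in MEKK1-/- cells. In MEKK1-/- cells, where 1 was reported, the count was 0 as deposited, with median scaling, z-scores by limma, normexp and without both arrays numbered 1, 2 with array weights and the replicate block, and 3 by the methods' z-test, with the filter and in the 2 groups alone. With trend and robust eBayes it stayed at 1, but NRG1 (limma adjusted p = 0.0323) took the place of VEGFC (limma adjusted p = 0.0615). With 1 array left out both counts ranged from 0 to 3, the count in MEKK1+/+ cells being 3 without untreated MEKK1+/+ replicate 4 and that in MEKK1-/- cells 3 without treated MEKK1+/+ replicate 2. For the average over genotypes, where 3 was reported, it was 2 as deposited and with median scaling, 4 with the replicate block within genotype (FGF10 joining at 0.22, limma adjusted p = 0.00944) and 3 in every other setting run. For the genotype comparisons and the interaction it was 0 in every setting run.

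Of the wider list, the 8 calls in MEKK1+/+ cells became 1 as deposited and 4 with median scaling (3 to 9 with 1 array left out, fewest without untreated MEKK1+/+ replicate 3), the 6 in MEKK1-/- cells 1 as deposited and 12 by the methods' z-test and with the replicate block within genotype (3 to 8, fewest without untreated MEKK1-/- replicate 4), and the 12 averaged calls 3 as deposited and 18 with array weights and with the replicate block within genotype (9 to 15). The z-test called 2 between genotypes in untreated cells and 1 with CM, where 0 was reported. Over all genes the replicate block within genotype called 1481 (8.17%) in MEKK1+/+ and 1438 (7.93%) in MEKK1-/- cells, against 909 and 851 without it. The replicate block across all groups changed the call of NRG1, with limma adjusted p 0.0316 in MEKK1+/+ and 0.0322 in MEKK1-/- cells.

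In the values as deposited the median of all genes was 0.28 lower with CM in MEKK1+/+ cells and 0.016 lower in MEKK1-/- cells, and 4.41% of genes were higher in the former against 49.3% after quantile normalization. There the MEKK1+/+ differences changed sign to -0.030 for HGF, -0.32 for FGF7, -0.13 for FGF10, -0.23 for PDGFA, -0.16 for FGF5, -0.25 for MET, -0.0020 for IL17RD and -0.040 for SPRY2, the averaged ones to -0.0035 for HGF and -0.018 for PDGFA, and the MEKK1-/- one to 0.014 for FGFR1. The genotype difference became 0.022 for FGF7 with CM and -0.22 for VEGFA untreated, and the interaction 0.33 for VEGFA, 0.42 for NRG1 and 0.054 for HGF.

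Median scaling turned FGF7 (-0.028) and FGFR2 (0.019) in MEKK1+/+ and FGFR1 (0.012) in MEKK1-/- cells, FGFR1 (-0.063) and VEGFA (-0.20) between genotypes with CM, VEGFA (-0.24) between untreated genotypes, and the interactions of VEGFA (0.040) and NRG1 (0.13). With z-scores, in SD units and equally for limma and the z-test, FGFR2 in MEKK1+/+ cells became 0.0054, FGFR1 in MEKK1-/- cells 0.016 and FGFR1 between genotypes with CM -0.0037, and by limma the interactions were 0.012 for VEGFA and 0.032 for NRG1. Array weights gave -0.034 for HGF, -0.053 for FGF2 and 0.031 for FGFR1 in MEKK1-/- cells, -0.0089 for FGF5 in MEKK1+/+ cells, and -0.0051 for FGFR1 and -0.049 for VEGFA between genotypes with CM. Normexp gave -0.0037 for KDR and -0.015 for MET in MEKK1-/- cells, -0.0049 for MET in MEKK1+/+ cells and 0.0040 for the interaction of NRG1. Without both MEKK1-/- arrays numbered 1 the MEKK1-/- differences became -0.075 for HGF, -0.022 for FGF2 and 0.023 for FGFR1, and genotype differences 0.016 for HGF untreated, and -0.016 for FGFR1 and -0.010 for VEGFA with CM.

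With 1 array left out, sign changes occurred within these ranges: FGF7 -0.10 to 0.31, FGFR2 -0.020 to 0.013, KDR -0.077 to 0.0074 and MET -0.044 to 0.044 in MEKK1+/+ cells, and HGF -0.081 to 0.14, FGF2 -0.058 to 0.084, FGF10 -0.041 to 0.37, FGFR1 -0.072 to 0.049, KDR -0.040 to 0.14 and MET -0.033 to 0.11 in MEKK1-/- cells. Between genotypes they were HGF -0.21 to 0.016 and VEGFA -0.021 to 0.15 untreated, and FGF7 -0.24 to 0.12, FGFR1 -0.057 to 0.10, VEGFC -0.24 to 0.067 and VEGFA -0.12 to 0.11 with CM, and for the interaction VEGFA -0.19 to 0.063, VEGFC -0.064 to 0.59 and NRG1 -0.15 to 0.14. The cause was not tested. Signal near background limits FGF2, FGFR2, HGF, MET, KDR, FGF5 and SPRY2, for which these data cannot show small changes.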
